A study of Homo sapiens with 9 samples.

Results

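Expression of 10 actin and Arp2/3 complex genes, of 60660 genes in the count matrix, was examined in OVCAR3 cells with altered *CTCFL*. The genes were taken from a list of names, drawn up with earlier results of these data known. They are the cytoplasmic actins *ACTB* and *ACTG1*, the actin-like gene *ACTBL2*, the actin-related proteins *ACTR2* and *ACTR3*, and the Arp2/3 subunits *ARPC1A*, *ARPC1B*, *ARPC2*, *ARPC3* and *ARPC5*. All 10 carried enough counts to be tested. OVCAR3 is an established cell line from a high-grade serous ovarian carcinoma, and *CTCFL* (BORIS) is the germline paralog of the chromatin factor CTCF. The RNA-seq data comprised 9 libraries in 3 groups of 3 biological replicates, named Control, CTCFL-OE and CTCFL-KD, and the transfection protocol that the labels give for every library pooled 3 technical replicates into each replicate. According to the labels and the methods, CTCFL-OE cells were transiently transfected with 2 µg of pCpGfree-vitroHBORIS, which carries the *CTCFL* open reading frame, and were collected after 48 h. Control cells received the matching LacZ plasmid. CTCFL-KD RNA came from an earlier siRNA knockdown and was set against the same plasmid Control, so the effect of lower *CTCFL* and that of the other agent and experiment cannot be told apart.

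Actin monomers polymerise into filaments that carry cell shape, adhesion and crawling. *ACTB* and *ACTG1* encode the β- and γ-actins of non-muscle cells, whose proteins are nearly identical, and both are common loading controls. The Arp2/3 complex binds the side of a filament and starts a branch. *ACTR2* (Arp2) and *ACTR3* (Arp3) mimic an actin dimer at its base, while the ARPC subunits hold the complex together and bind the mother filament. Branched networks of this kind push the leading edge of migrating carcinoma cells. Transcription of actin genes in many cells is driven by serum response factor (*SRF*), which binds a CArG box, with its actin-sensing cofactors *MRTFA* and *MRTFB*.

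Total counts per library ranged from 14332622 to 24490080, and a count of 0 allows at most 3 counts in a library. *CTCFL* itself had 6, 9 and 10 counts in the Control libraries, 36, 34 and 72 counts in those of CTCFL-OE and 0, 1 and 0 counts in those of CTCFL-KD, so each library followed its label. Counts on mitochondrially encoded genes made up 6.16 to 6.52% in Control, 7.40 to 14.9% in CTCFL-OE and 7.80 to 11.8% in CTCFL-KD. CTCFL-KD replicate 1 stood apart, with a TMM factor of 0.775 where the other libraries lay between 0.945 and 1.09. Its log2 CPM minus the mean of the other CTCFL-KD libraries fell with transcript length across 12141 genes (Spearman's rho = -0.653, a description across genes that share the same 3 libraries). Among the actin and Arp2/3 genes this difference ran from 1.77 for *ARPC1A*, with a canonical transcript of 1582 bases, to -1.24 for *ACTR2*, with one of 3783 bases. The longest members did not follow this order, with 0.31 for *ARPC5* (7266 bases) and -0.60 for *ACTR3* (6589 bases). Each member's CTCFL-KD result is therefore given with and without this library. CPM below relate the count of a gene to the TMM-scaled size of its library.

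**Figure D1:**
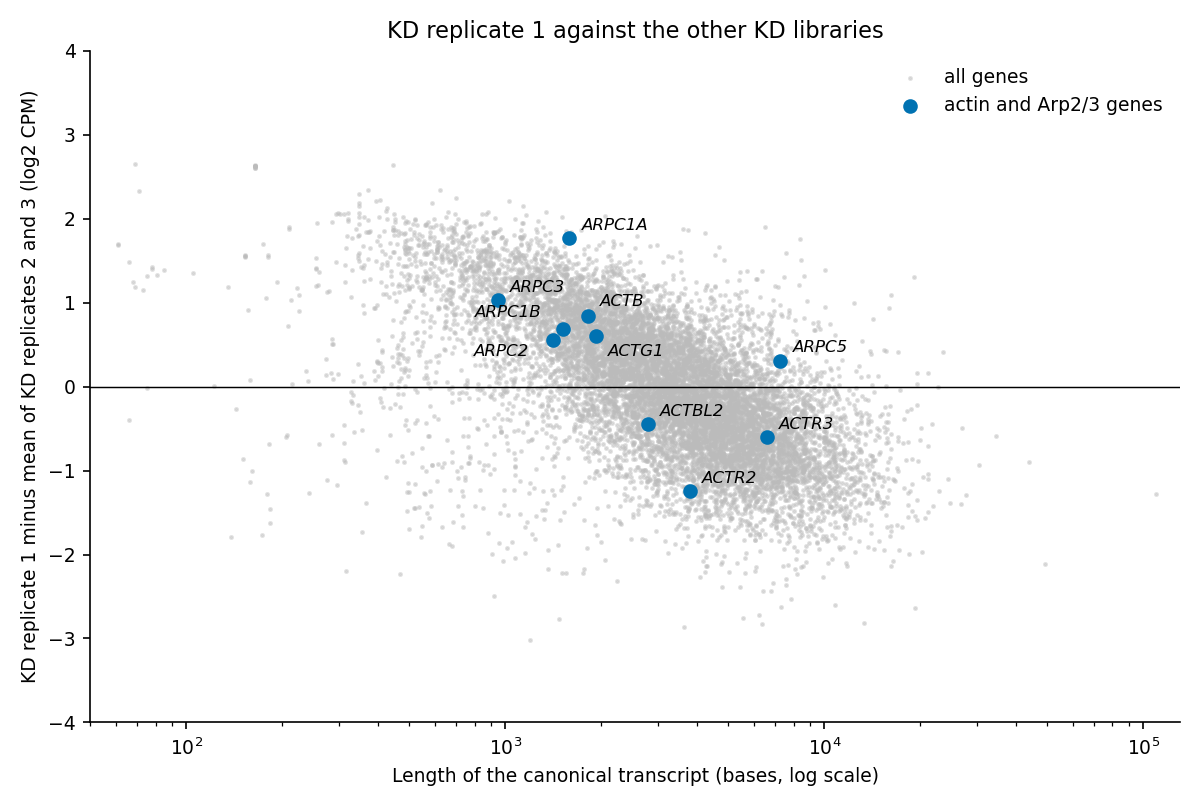
Each grey point is a gene with a mean of at least 4 CPM (12141 genes), and blue points are the 10 actin and Arp2/3 genes. The x axis is the length of the canonical transcript in bases on a log scale and the y axis the log2 CPM of CTCFL-KD replicate 1 minus the mean of replicates 2 and 3. Short transcripts tended to lie above 0 and long ones below, and *ARPC1A* lay highest of the 10 genes, at 1.77.

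*ACTG1* and *ACTBL2* were the members that passed the test in CTCFL-OE, and the bases upstream of their RefSeq start sites on GRCh38.p14 are shown because they differ in the CArG box. The *ACTG1* stretch lies on the minus strand at chr17:81512852-81512949, from 150 to 53 bases before the start, and stops where leader exons of other *ACTG1* transcripts begin. The *ACTBL2* stretch lies on the minus strand at chr5:57482812-57482961 and covers the 150 bases before the start. Both read 5′ to 3′ on the gene's strand, and capitals mark the CArG box.
ACTG1: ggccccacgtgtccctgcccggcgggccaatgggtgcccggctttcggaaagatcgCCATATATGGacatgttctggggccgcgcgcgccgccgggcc
ACTBL2: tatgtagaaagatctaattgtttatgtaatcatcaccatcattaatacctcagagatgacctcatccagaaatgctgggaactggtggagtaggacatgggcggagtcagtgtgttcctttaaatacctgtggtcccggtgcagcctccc
Of the 10 members, 8 had promoter entries (250 bases before to 50 after a start, 11 entries in all), and *ACTB* and *ARPC1B* were not matched. A CArG box on either strand occurred in 1 of these 11 entries, that of *ACTG1* at 94 bases before the start, and in 1.29% of all 35093 promoters. Letters from the core bound by CTCF and *CTCFL* were also searched on both strands. AGGGGGC occurred in 1 of the 11 entries, that of *ARPC2*, and in 14.4% of all promoters, while AGGTGGC occurred in 0 of 11 and in 6.76% of all. TATAAA occurred in 0 of the 11 entries and in 11.5% of all promoters. A match describes these letters only and is no measure of binding.

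Transcript levels of the members were compared per length, as CPM per kilobase of the canonical transcript. In Control, *ACTB* was at 2995 ± 138 CPM per kilobase (SD, n = 3) and *ACTG1* at 2115 ± 70.4. *ARPC2* followed at 252 ± 3.94, *ARPC3* at 172 ± 16.3, *ACTR2* at 100.5 ± 4.19 and *ACTR3* at 53.4 ± 1.64 CPM per kilobase. The lowest levels were those of *ARPC1A* (19.6 ± 0.189), *ARPC5* (16.2 ± 0.491), *ARPC1B* (6.87 ± 0.0493) and *ACTBL2* (5.60 ± 0.910). The places of *ARPC1A* and *ARPC1B* are uncertain. Of their stretches of 75 bases, the read length, 75.3% and 84.8% also occur in other genes, and such reads may have been left out. The place of *ARPC5*, at 118 ± 3.57 CPM, rests on division by a canonical length of 7266 bases. Both cytoplasmic actins thus stood above every Arp2/3 gene, and the Control libraries of neighbouring genes in this order did not overlap. The order was the same in CTCFL-OE, where *ARPC1A* (14.7 ± 3.86) and *ARPC5* (10.1 ± 2.74) overlapped. In CTCFL-KD, *ACTB* (1459 ± 524) and *ACTG1* (1358 ± 354) lay within each other's spread, as did *ARPC2* (179 ± 42.5) and *ARPC3* (164 ± 73.6), and *ARPC1A* (26.7 ± 20.6) and *ACTR3* (23.1 ± 5.16).

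**Figure D2:**
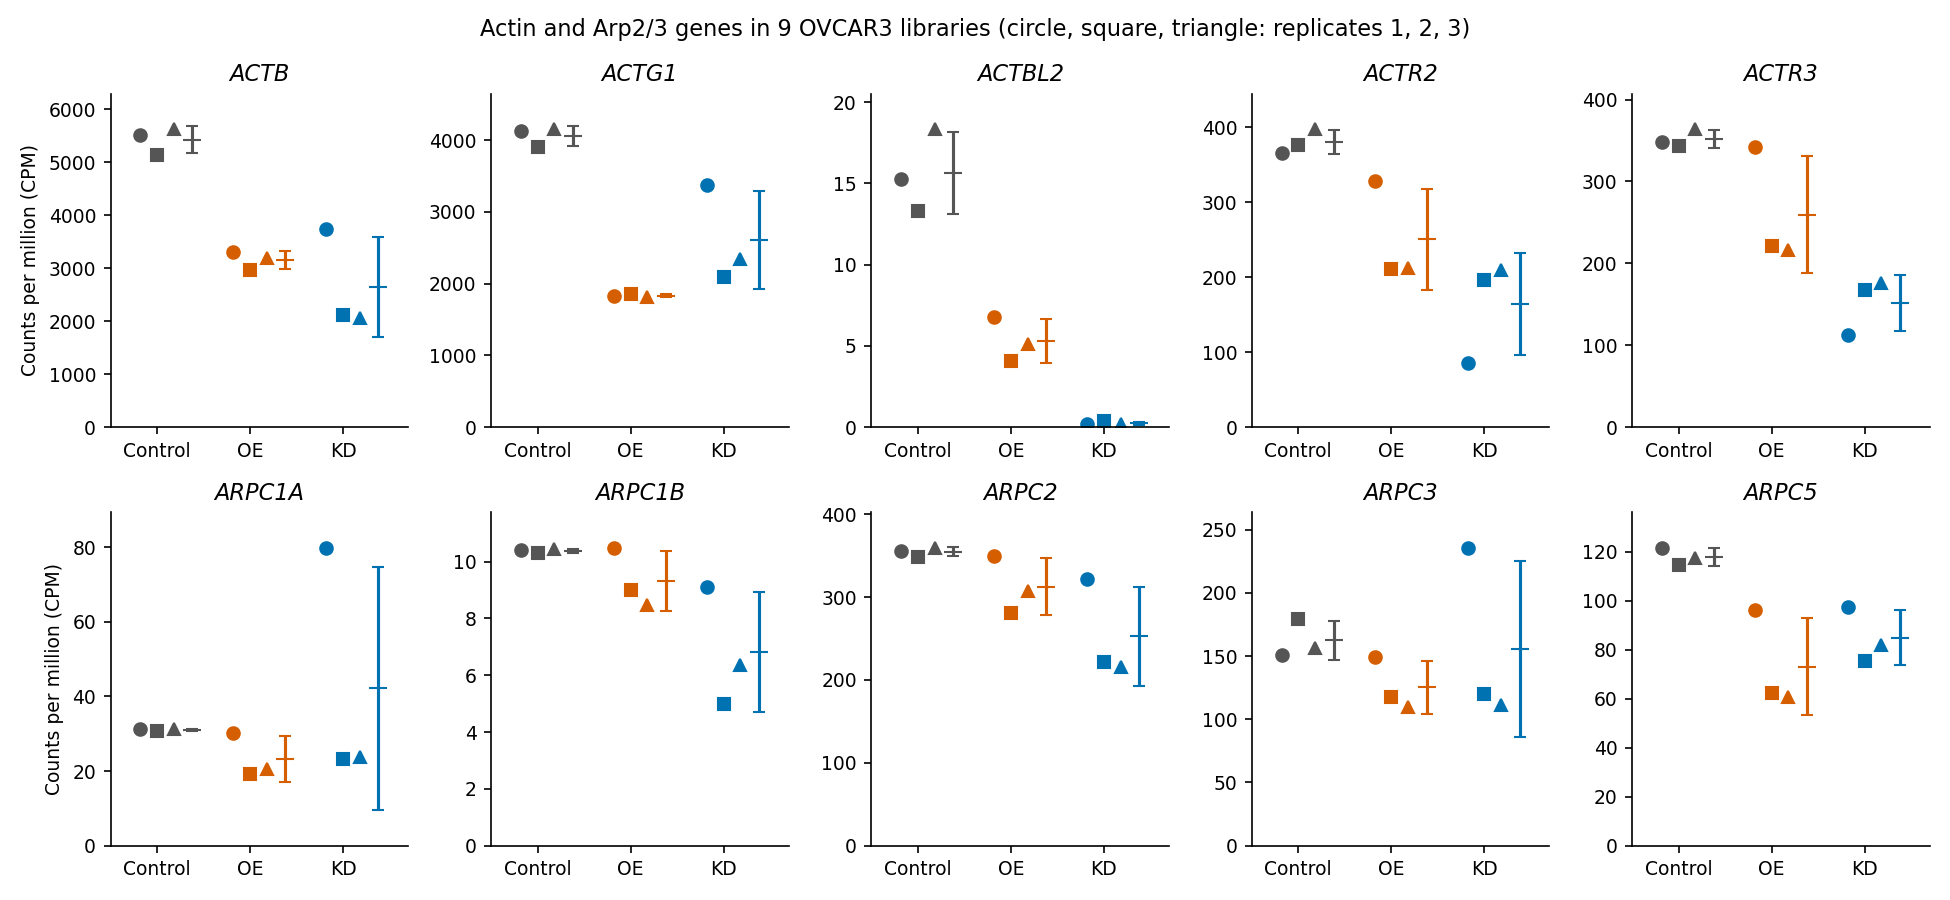
CPM of each actin and Arp2/3 gene (y axis, linear from 0) by group (x axis: Control, CTCFL-OE, CTCFL-KD), with 1 point per library shaped by replicate number and the mean ± SD beside it (n = 3). All CTCFL-OE and CTCFL-KD points of *ACTB*, *ACTG1*, *ACTBL2*, *ACTR2*, *ACTR3* and *ARPC5* lie below the Control points, and CTCFL-KD replicate 1 lies highest of its group for *ARPC1A*, at 79.8 CPM.

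In edgeR each cytoplasmic actin passed the test in 1 of the comparisons with Control, *ACTB* in CTCFL-KD and *ACTG1* in CTCFL-OE. By DESeq2 both passed in both. There *ACTB* in CTCFL-OE had adjusted p = 0.0299 (DESeq2) and *ACTG1* in CTCFL-KD adjusted p = 0.00274 (DESeq2). *ACTB* (chr7:5526409-5563902, minus strand) had 5514, 5144 and 5622 CPM in Control, 3311, 2970 and 3192 CPM in CTCFL-OE, and 3739, 2123 and 2069 CPM in CTCFL-KD. Every altered library was below every Control library. The log2 fold change of *ACTB* was -1.04 ± 0.27 (SE) in CTCFL-KD against Control, a DEG with adjusted p = 0.0112 by edgeR's quasi-likelihood test, and -1.37 without CTCFL-KD replicate 1 (adjusted p = 7.64e-05, edgeR). In CTCFL-OE the *ACTB* value was -0.78 ± 0.27 and did not pass (adjusted p = 0.170, edgeR, threshold 0.1). It passed once the length and GC trend of each library was removed (-0.83, adjusted p = 0.0261, edgeR) and without CTCFL-KD replicate 1, which enters the shared estimate of spread (adjusted p = 0.00785, edgeR). DEG stands for a gene whose log2 fold change was beyond 1 and whose adjusted p was below the threshold, 0.1 for CTCFL-OE and 0.05 for CTCFL-KD.

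*ACTG1* (chr17:81509413-81523847, minus strand) had 4121, 3904 and 4152 CPM in Control, 1830, 1858 and 1816 CPM in CTCFL-OE, and 3377, 2093 and 2347 CPM in CTCFL-KD. The 3 groups did not overlap, and CTCFL-OE was the lowest. In CTCFL-OE, *ACTG1* was a DEG with a log2 fold change of -1.15 ± 0.24 (2.21-fold lower, adjusted p = 0.0479, edgeR). Leaving out any of the Control libraries ended this call, with adjusted p between 0.199 and 0.254, while the fold change stayed between -1.18 and -1.13, and leaving out CTCFL-OE replicate 2 (adjusted p = 0.208, edgeR) or replicate 3 (adjusted p = 0.142, edgeR) did so too. In CTCFL-KD the value was -0.64 ± 0.23, with an adjusted p of 0.05004 that lay just above the threshold of 0.05 (edgeR). With the replicate number as a block it was -0.66 and passed (adjusted p = 0.0462, edgeR), and without CTCFL-KD replicate 1 it was -0.87 and passed (adjusted p = 0.000859, edgeR).

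*ACTB* and *ACTG1* together took 0.951 to 1.01% of all counts in Control, 0.473 to 0.559% in CTCFL-OE and 0.427 to 0.550% in CTCFL-KD. In these bulk libraries fewer cells with the transcript and less of it per cell cannot be told apart. The balance between the pair of genes moved in opposite directions. *ACTB* counts divided by *ACTG1* counts gave ratios of 1.34, 1.32 and 1.35 for Control, 1.81, 1.60 and 1.76 for CTCFL-OE, and 1.11, 1.01 and 0.882 for CTCFL-KD. The 3 groups of libraries did not overlap. The mean log2 ratio was 0.36 higher in CTCFL-OE and 0.42 lower in CTCFL-KD than in Control, each with p = 0.1 in an exact two-sided permutation test, the smallest p that 3 libraries against 3 allow (0.1 also after adjustment over both tests). Both comparisons share the Control libraries. Without CTCFL-KD replicate 1 the CTCFL-KD difference was -0.50 on the log2 scale.

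**Figure D3:**
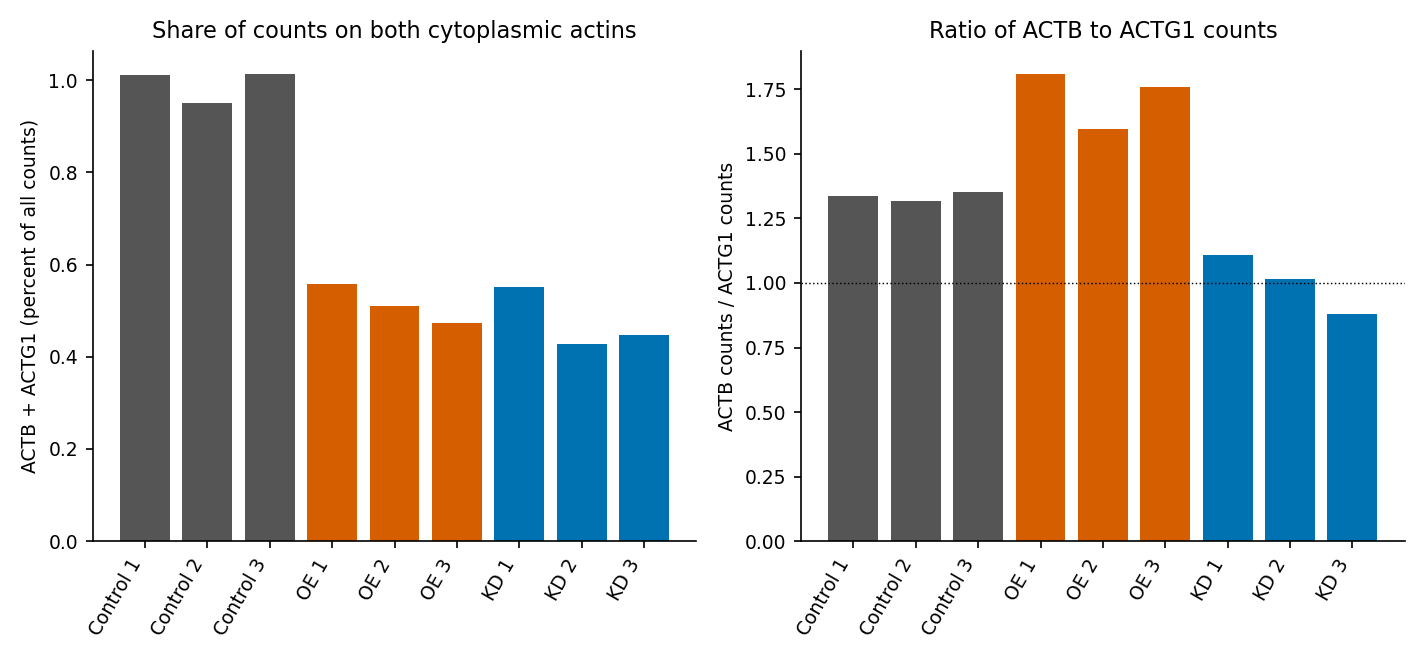
Left, the percent of all counts on *ACTB* and *ACTG1* together (y axis) in each of the 9 libraries (x axis). Right, *ACTB* counts divided by *ACTG1* counts in the same libraries, with a dotted line at 1; Control bars lie between 1.32 and 1.35, CTCFL-OE bars above them from 1.60 to 1.81 and CTCFL-KD bars below them from 0.882 to 1.11.

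How reads that align to several genes were assigned is not given in the sources used here, so the counts of actin paralogs remain uncertain to that extent. Stretches of 75 bases, the read length, were compared exactly between GENCODE transcripts. Of the canonical *ACTB* transcript, 2.88% of such stretches also occurred in other genes, namely *ACTBP2*, *POTEE*, *POTEI* and *POTEJ*, whereas 0 of 1845 *ACTG1* stretches and 0 of 2720 *ACTBL2* stretches did. The annotation holds 47 actin pseudogenes and POTE genes, some of which contain an actin-like part, and 36 of them had counts, 2298 in all. Their counts amounted to 0.0963 to 0.328% of those on *ACTB* and *ACTG1*. Of the 9 that could be tested, 0 passed in CTCFL-OE, by edgeR, by DESeq2 or at an unadjusted p under 0.05 (the values ranged from -0.60 for *ACTBP2* to 0.81 for *ACTG1P1*), and 3 passed as lower in CTCFL-KD (16.8% of all genes), the *ACTB* pseudogenes *ACTBP7* (-1.70, adjusted p = 0.00294, edgeR) and *ACTBP2* (-1.23, adjusted p = 0.0195, edgeR) and *POTEE* (-0.84, adjusted p = 0.0458, edgeR). When *ACTB*, *ACTG1* and these rows were merged into 1 feature, its log2 fold change was -0.92 in CTCFL-OE (adjusted p = 0.114, edgeR), which did not pass, and -0.85 in CTCFL-KD (adjusted p = 0.0235, edgeR), which passed.

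*ACTBL2* showed the largest difference of the 10 genes in either comparison. It is a gene of a single exon on chromosome 5 (chr5:57480018-57482811, minus strand) that encodes an actin close to the cytoplasmic forms. *ACTBL2* had 305, 342 and 362 counts in Control, 148, 78 and 83 counts in CTCFL-OE, and 2, 6 and 4 counts in CTCFL-KD. As CPM this was 13.3 to 18.3 in Control, 4.08 to 6.75 in CTCFL-OE and 0.180 to 0.357 in CTCFL-KD, and the 3 groups did not overlap. The log2 fold change was -1.55 ± 0.23 in CTCFL-OE (adjusted p = 0.0142, edgeR) and -5.88 ± 0.34 in CTCFL-KD (adjusted p = 2.07e-06, edgeR), both DEGs. Without CTCFL-KD replicate 1 the latter was -5.74 (adjusted p = 1.86e-06, edgeR). Without Control replicate 3 the CTCFL-OE call was lost, at -1.43 with adjusted p = 0.119 (edgeR). From counts summed over libraries and divided by the summed TMM-scaled library sizes, Control exceeded CTCFL-KD 59.3-fold (95% exact interval 33.8 to 115) and CTCFL-OE 2.86-fold (2.52 to 3.26), where the intervals cover counting error only. Set directly against CTCFL-OE, *ACTBL2* in CTCFL-KD was at -4.33 on the log2 scale (adjusted p = 2.41e-05, edgeR). The long noncoding gene *RMEL3* spans *ACTBL2* on the opposite strand and had 0 to 5 counts per library.

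*ACTR2* and *ACTR3*, the actin-related proteins at the base of a branch, were lower in CTCFL-KD. *ACTR2* (chr2:65227788-65271253, plus strand) had 366, 377 and 398 CPM in Control, 328, 211 and 212 CPM in CTCFL-OE, and 85.9, 197 and 210 CPM in CTCFL-KD. CTCFL-OE replicate 1 lay nearest to Control and CTCFL-KD replicate 1 farthest from it. The CTCFL-KD log2 fold change of -1.21 ± 0.32 made *ACTR2* a DEG (adjusted p = 0.0121, edgeR). It was -0.90 without replicate 1 (adjusted p = 0.00305, edgeR) and -0.83 with the length and GC trend removed (adjusted p = 0.00469, edgeR), still past the test but under the fold of a DEG. In CTCFL-OE the value of -0.60 ± 0.31 did not pass (adjusted p = 0.342, edgeR), but passed without CTCFL-KD replicate 1 (-0.60, adjusted p = 0.0403, edgeR).

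*ACTR3* (chr2:113890063-113962596, plus strand) had 349, 343 and 364 CPM in Control, 342, 221 and 216 CPM in CTCFL-OE, and 113, 167 and 176 CPM in CTCFL-KD. All CTCFL-KD libraries lay below all CTCFL-OE libraries, which in turn lay below Control. *ACTR3* was a DEG in CTCFL-KD (-1.21 ± 0.24, adjusted p = 0.00285, edgeR), remained beyond a log2 fold change of 1 without replicate 1 (-1.03, adjusted p = 0.0015, edgeR), and was at -0.69 with the trend removed (adjusted p = 0.00563, edgeR). Its canonical transcript of 6589 bases is the longest of the 10 after that of *ARPC5*. In CTCFL-OE it was at -0.44 ± 0.24 and did not pass (adjusted p = 0.358, edgeR), but passed without CTCFL-KD replicate 1 (-0.44, adjusted p = 0.0944, edgeR). *ACTR3* also passed in CTCFL-KD against CTCFL-OE (-0.77, adjusted p = 0.0342, edgeR; -0.60 and 0.0300 without replicate 1), but with the replicate block it did not (adjusted p = 0.0536, edgeR), and with the trend removed it was at -0.41 (adjusted p = 0.0689, edgeR).

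For *ACTR2*, *ACTR3*, *ARPC1A* and *ARPC5*, CTCFL-OE replicate 1 was 0.61 to 0.65 higher than the mean of the other CTCFL-OE libraries on the log2 scale. This difference was 0.56 for *ACTBL2*, 0.395 for *ARPC3*, 0.26 for *ARPC1B* and 0.25 for *ARPC2*. For *ACTB* and *ACTG1* it was 0.10 and -0.01. That library had 7.40% mitochondrial counts against 12.4 and 14.9% in the others, and the part of this in the results was not tested.

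Of the ARPC subunits, 0 passed in CTCFL-OE (*ARPC5* did at an unadjusted p under 0.05 in edgeR and by DESeq2) and 1, *ARPC1B*, passed as lower in CTCFL-KD, where 16.8% of all genes tested did. With CTCFL-KD replicate 1 left out, *ARPC1A* (-0.41, adjusted p = 0.0950, edgeR), *ARPC3* (-0.37, adjusted p = 0.0789, edgeR) and *ARPC5* (-0.69, adjusted p = 0.0250, edgeR) passed in CTCFL-OE, at a background of 13.4%. *ARPC2* (chr2:218217141-218254356, plus strand), which forms the core of the complex and binds the mother filament, had 356, 349 and 360 CPM in Control, 349, 281 and 307 CPM in CTCFL-OE, and 322, 222 and 215 CPM in CTCFL-KD. The CTCFL-KD libraries all lay below Control, while a CTCFL-OE library reached the Control range. Its log2 fold change was -0.18 ± 0.20 in CTCFL-OE (adjusted p = 0.666, edgeR) and -0.49 ± 0.20 in CTCFL-KD (adjusted p = 0.0794, edgeR), neither past the test. Without CTCFL-KD replicate 1 the latter was -0.70 (adjusted p = 0.00125, edgeR) and with the trend removed -0.52 (adjusted p = 0.00717, edgeR), and both passed. *ARPC5* (chr1:183620846-183635783, minus strand), a small subunit that contacts Arp2, had 122, 115 and 118 CPM in Control, 96.2, 62.5 and 60.9 CPM in CTCFL-OE, and 97.5, 75.5 and 81.8 CPM in CTCFL-KD. All altered *ARPC5* libraries lay below Control. Its log2 fold changes of -0.69 ± 0.21 in CTCFL-OE (adjusted p = 0.134, edgeR) and -0.47 ± 0.21 in CTCFL-KD (adjusted p = 0.0907, edgeR) did not pass. The CTCFL-KD value was -0.58 without replicate 1, which passed (adjusted p = 0.0225, edgeR), and -0.01 with the trend removed. Its transcript of 7266 bases is the longest of the 10, but in CTCFL-KD replicate 1 it lay 0.31 above the other CTCFL-KD libraries on the log2 scale, where the trend over all genes gives -0.93.

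*ARPC3* (chr12:110434823-110450422, minus strand), a subunit next to Arp3, had 151, 180 and 157 CPM in Control, 149, 117 and 110 CPM in CTCFL-OE, and 236, 120 and 111 CPM in CTCFL-KD. CTCFL-KD replicate 1 was the highest library of all and the other CTCFL-KD libraries lay below Control. The log2 fold change was -0.37 ± 0.28 in CTCFL-OE (adjusted p = 0.508, edgeR) and -0.06 ± 0.28 in CTCFL-KD (adjusted p = 0.874, edgeR). Without CTCFL-KD replicate 1 it was -0.49 in CTCFL-KD and passed (adjusted p = 0.0198, edgeR). Of its 75-base stretches, 15.9% occurred in other genes, mainly the pseudogene *ARPC3P3*.

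*ARPC1A* (chr7:99325898-99366262) and *ARPC1B* (chr7:99374249-99394816) encode the alternative *ARPC1* subunits and lie next to each other on the plus strand. GENCODE also places a readthrough gene, ENSG00000284292, over both, and 75.3% of the 75-base stretches of *ARPC1A* and 84.8% of those of *ARPC1B* occurred in other genes, mainly this one. Reads that overlap several genes may have been left out, so both levels are uncertain, and the readthrough gene itself had 0 to 3 counts per library. *ARPC1A* had 31.2, 30.7 and 31.2 CPM in Control, 30.3, 19.1 and 20.5 CPM in CTCFL-OE, and 79.8, 23.1 and 23.7 CPM in CTCFL-KD. Its CTCFL-KD log2 fold change of 0.44 ± 0.42 (adjusted p = 0.431, edgeR) rested on replicate 1 and turned to -0.40 without that library (adjusted p = 0.0813, edgeR). In CTCFL-OE the *ARPC1A* value was -0.41 ± 0.42 (adjusted p = 0.634, edgeR). *ARPC1B* had 10.4, 10.3 and 10.4 CPM in Control, 10.5, 8.99 and 8.48 CPM in CTCFL-OE, and 9.11, 4.99 and 6.35 CPM in CTCFL-KD. All CTCFL-KD libraries were below Control. *ARPC1B* passed the test in CTCFL-KD (-0.62 ± 0.22, adjusted p = 0.0480, edgeR) and was at -0.86 without replicate 1 (adjusted p = 0.00144, edgeR). Leaving out any 1 Control library, CTCFL-OE replicate 2 or 3, or CTCFL-KD replicate 2 or 3 ended the call, with adjusted p from 0.0555 to 0.157 (edgeR). In CTCFL-OE it was at -0.15 ± 0.22 (adjusted p = 0.738, edgeR).

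Over the 10 genes, 2 passed the test in CTCFL-OE, *ACTG1* and *ACTBL2*, both lower and both DEGs, where 1.16% of all 17794 genes tested passed as lower and 0.702% were lower DEGs. The log2 fold change was below 0 for 10 of 10 members, with a median of -0.52 against -0.01 over all genes tested. In 8 of 10 members every CTCFL-OE library lay below every Control library, as did 20.8% of all genes. Without CTCFL-KD replicate 1 the test passed 8 of the 10 as lower, at a background of 13.4%, and with the length and GC trend removed 3 of the 10, at a background of 4.57%. Without Control replicate 3 it passed 0 of the 10. The fold changes themselves hardly moved when CTCFL-KD replicate 1 was left out, and their median was then -0.52.

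In CTCFL-KD, 5 of the 10 genes passed as lower (*ACTB*, *ACTBL2*, *ACTR2*, *ACTR3* and *ARPC1B*) and 4 of these were DEGs, where 16.8% of all genes passed as lower and 7.94% were lower DEGs. The log2 fold change was below 0 for 9 of 10 members, with *ARPC1A* as the exception, and the median was -0.63 against 0.08 over all genes tested. In 8 of 10 members the CTCFL-KD libraries all lay below Control, as did 27.6% of all genes. Without replicate 1, 9 of the 10 passed as lower (*ARPC1A* did not), at a background of 23.7%, and 3 were DEGs (7.27% of all genes were lower DEGs then). With the trend removed 7 of the 10 passed, at a background of 20.0%, and 2 were DEGs (7.40% of all genes). In the direct comparison of CTCFL-KD with CTCFL-OE, 2 of the 10 passed as lower, *ACTBL2* and *ACTR3*, where 11.5% of all genes did, and 5 of the 10 without CTCFL-KD replicate 1, at a background of 18.7%. The *ACTG1* libraries of CTCFL-KD were all above those of CTCFL-OE, by 0.51 ± 0.23 on the log2 scale, a difference that did not pass in edgeR (adjusted p = 0.129) and passed in DESeq2 (adjusted p = 0.0485).

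**Figure D4:**
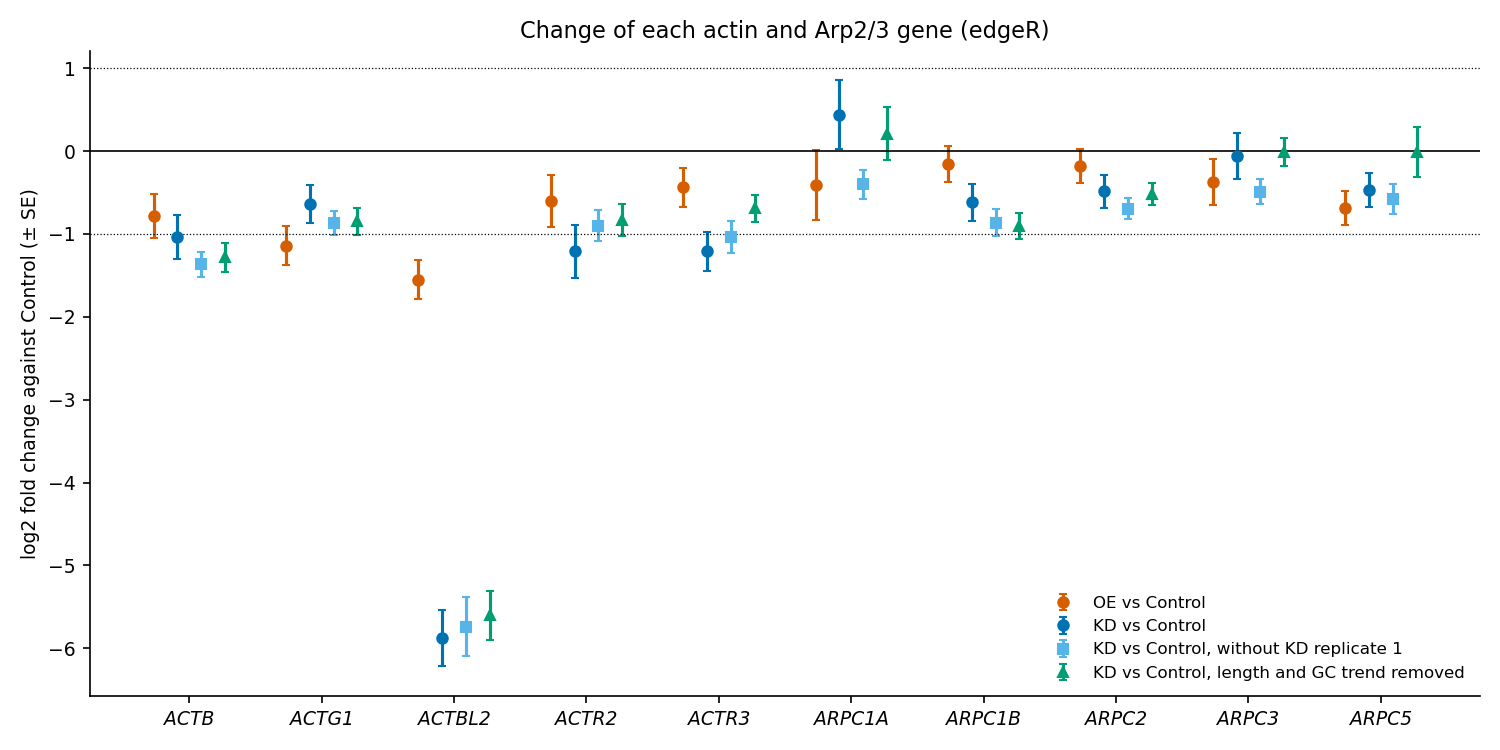
Log2 fold change against Control ± SE from edgeR (y axis) for each of the 10 genes (x axis), in CTCFL-OE, in CTCFL-KD, in CTCFL-KD without replicate 1 and in CTCFL-KD with the length and GC trend removed. Dotted lines mark a log2 fold change of 1 in either direction; *ACTBL2* reached -5.88 in CTCFL-KD, and *ARPC1A* was above 0 in CTCFL-KD at 0.44 and below 0 without replicate 1 at -0.40.

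Among other subunits and isoforms of the complex, 0 of 4 passed in CTCFL-OE (by edgeR, by DESeq2 or at an unadjusted p under 0.05, but 1, *ARPC4*, as lower without CTCFL-KD replicate 1, beside 13.4% of all genes) and 1 of 4 was lower in CTCFL-KD, where 16.8% of all genes were. Leaving out CTCFL-KD replicate 1 gave 2 of 4 lower in CTCFL-KD, at a background of 23.7%. *ARPC4*, the scaffold partner of *ARPC2*, was at -0.39 in CTCFL-OE and 0.29 in CTCFL-KD, and without CTCFL-KD replicate 1 at -0.39 (adjusted p = 0.0413, edgeR) and -0.48 (adjusted p = 0.00934, edgeR). *ARPC5L*, the alternative form of *ARPC5*, was at -0.11 and 0.17, and the latter turned to -0.22 without CTCFL-KD replicate 1 (adjusted p = 0.0779, edgeR). *ACTR3B*, an isoform of Arp3, was at -0.07 and 0.07. *ACTR3C*, a shorter Arp3-like gene, had 43, 32 and 47 counts in Control, 47, 61 and 50 counts in CTCFL-OE and 7, 19 and 13 counts in CTCFL-KD, and was lower in CTCFL-KD (-1.18, adjusted p = 0.0222, edgeR). Of the 4 muscle actins, 1 could be tested, *ACTA2* (smooth muscle α-actin), with 4 to 20 counts per library and log2 fold changes (0.65 for CTCFL-OE, -0.24 for CTCFL-KD) that did not pass. *ACTA1*, *ACTC1* and *ACTG2* had at most 13 counts in any library.

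More of the listed actin-related genes passed as lower than as higher in either comparison with Control. With the other subunits and the muscle actins, 106 of 120 listed actin-related genes outside the 10 could be tested, and 8 of them passed as lower and 0 as higher in CTCFL-OE, where 1.16% and 1.99% of all genes did (23 lower and 4 higher at an unadjusted p under 0.05, 14 lower and 2 higher by DESeq2). All 8 calls were lost without any 1 Control library or CTCFL-OE replicate 2. Shares over all genes are not given for counts at an unadjusted p or by DESeq2, here and in the other paragraphs. In CTCFL-KD, 37 passed as lower and 4 as higher, where 16.8% and 21.4% of all genes did. The medians were -0.25 and -0.30 on the log2 scale, beside -0.01 and 0.08 over all genes tested. Without CTCFL-KD replicate 1 the counts were 43 lower and 7 higher in CTCFL-OE (13.4% and 14.0% of all genes) and 54 lower and 11 higher in CTCFL-KD (23.7% and 26.2% of all genes). In CTCFL-OE these were 13 lower among the turnover proteins, 6 lower and 3 higher among the formins and 9 lower and 3 higher in the *SRF* list, described next.

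**Figure D5:**
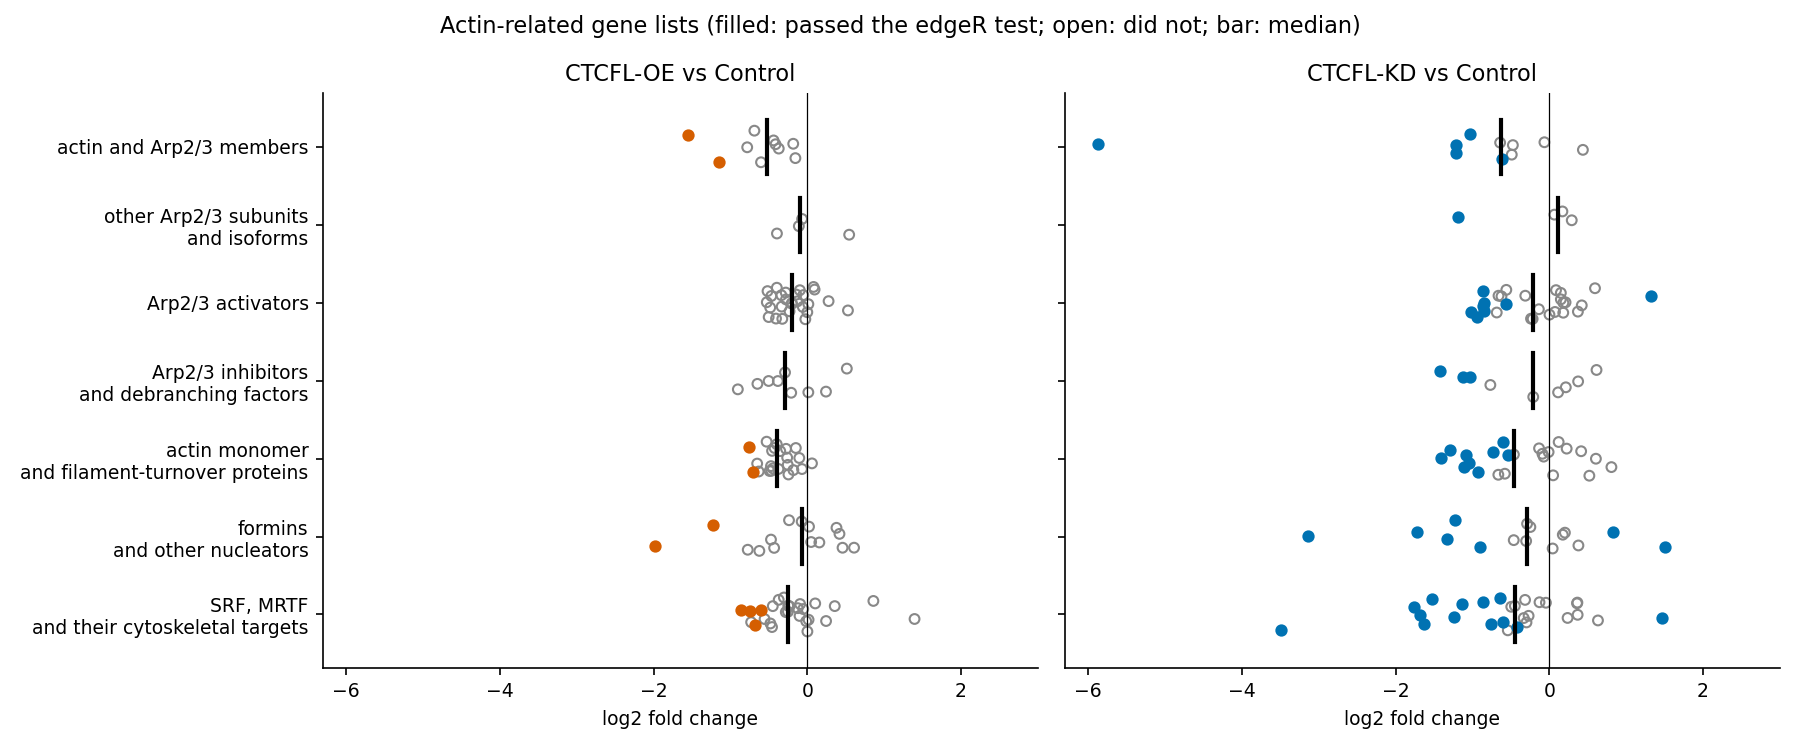
Log2 fold change against Control (x axis) of the genes tested in each list (y axis), with CTCFL-OE on the left and CTCFL-KD on the right. Filled points passed the edgeR test and open points did not, and bars mark the median of a list; in CTCFL-KD, filled points on both sides of 0 are seen among the activators, the formins and the *SRF* list.

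Arp2/3 activators switch the complex on at membranes, and 0 of 27 passed in CTCFL-OE (3 at an unadjusted p under 0.05 in edgeR, 1 by DESeq2), while 7 were lower and 1 was higher in CTCFL-KD (backgrounds 16.8% and 21.4%). With CTCFL-KD replicate 1 left out, 10 were lower and 1 higher in CTCFL-OE (backgrounds 13.4% and 14.0%) and 10 lower and 5 higher in CTCFL-KD (23.7% and 26.2%). *WASF3* (-1.02, adjusted p = 0.0161, edgeR), a WAVE protein, and *ABI1* (-0.95, adjusted p = 0.00615, edgeR), a subunit of the WAVE complex, were the lowest in CTCFL-KD. *WAS*, best known in blood cells, was higher in CTCFL-KD (1.33, adjusted p = 0.0232, edgeR), from 0.350 ± 0.138 to 0.867 ± 0.140 CPM (SD, n = 3). With 0.410 ± 0.122 CPM in CTCFL-OE, it cleared the low-count filter through CTCFL-KD, where it is high, so this call is not free of that selection. Of 9 Arp2/3 inhibitors and debranching factors, 0 passed in CTCFL-OE (2 at an unadjusted p under 0.05 in edgeR, 0 by DESeq2, 4 as lower without CTCFL-KD replicate 1, beside 13.4% of all genes) and 3 were lower in CTCFL-KD (16.8% of all genes). These included the coronins *CORO1A* (-1.42, adjusted p = 0.00394, edgeR) and *CORO1C* (-1.12, adjusted p = 0.00204, edgeR).

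Proteins of monomer supply and filament turnover were lower in 2 of 23 cases in CTCFL-OE (1.16% of all genes) and in 9 of 23 in CTCFL-KD (16.8% of all genes), with 0 higher in either. Leaving out CTCFL-KD replicate 1 gave 15 lower and 1 higher in CTCFL-KD (23.7% and 26.2% of all genes). *WDR1*, which works with cofilin to take filaments apart, was at 550 ± 10.5 CPM in Control, against 337 ± 4.65 CPM in CTCFL-OE and, in CTCFL-KD, 224 ± 25.4 CPM (SD, n = 3). It passed in CTCFL-OE (-0.71, adjusted p = 0.0788, edgeR) and in CTCFL-KD (-1.30, adjusted p = 0.000268, edgeR). *LIMK2*, a kinase that inactivates cofilin, passed in both comparisons, at -0.76 in CTCFL-OE (adjusted p = 0.0463, edgeR) and -0.73 in CTCFL-KD. The CTCFL-OE calls of *WDR1* and *LIMK2* were lost when any 1 Control library was left out. *TWF1* (twinfilin), which binds monomers and barbed ends, was at -1.41 in CTCFL-KD (adjusted p = 0.00141, edgeR).

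Formins and other nucleators build unbranched filaments, and 2 of 15 were lower in CTCFL-OE (1.16% of all genes), while 5 were lower and 2 higher in CTCFL-KD (16.8% and 21.4% of all genes). The formin *FHOD3* was lower in both, with log2 fold changes of -1.98 (adjusted p = 0.0278, edgeR) and -3.15 (adjusted p = 0.000184, edgeR). *COBL* (cordon-bleu) was lower in CTCFL-OE (-1.23, adjusted p = 0.0688, edgeR) and higher in CTCFL-KD (1.5, adjusted p = 0.000947, edgeR), at 1.42 ± 0.164 CPM in Control, against 0.593 ± 0.173 CPM in CTCFL-OE and, in CTCFL-KD, 4.03 ± 0.531 CPM. The CTCFL-OE calls of *FHOD3* and *COBL* were lost when any 1 Control library was left out. *FHOD1* (0.83) was higher and *DAAM2* (-1.72) lower in CTCFL-KD.

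*SRF*, *MRTFA*, *MRTFB* and cytoskeletal genes known as their targets gave 4 lower and 0 higher of 27 in CTCFL-OE (1.16% and 1.99% of all genes), and 12 lower and 1 higher in CTCFL-KD (16.8% and 21.4% of all genes). *SRF* was at 43.5 ± 2.89 CPM in Control, against 28.7 ± 2.12 CPM in CTCFL-OE and, in CTCFL-KD, 34.5 ± 1.27 CPM (SD, n = 3), and it passed in CTCFL-OE (-0.60, adjusted p = 0.0843, edgeR) but not in CTCFL-KD (-0.33, adjusted p = 0.103, edgeR). *SRF* passed in CTCFL-KD too once CTCFL-KD replicate 1 was left out (-0.35, adjusted p = 0.0235, edgeR), and its difference between CTCFL-KD and CTCFL-OE did not pass (0.27, adjusted p = 0.212, edgeR). The CTCFL-OE calls of *SRF* and the other genes of this list were lost when any 1 Control library was left out. *CNN2* (calponin) at -0.86 and the adhesion protein *ZYX* (zyxin) at -0.74 were the lowest of the list in CTCFL-OE. In CTCFL-KD the lowest were *FHL2*, a LIM-domain protein (-3.49), and *ZYX* (-1.76), and *MYL9*, a myosin light chain, was higher (1.47). *SRF*, *CNN2*, *ZYX* and the other listed genes are not members of the 10, and their part in the member values was not tested.

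The genes whose Control-centred log2 CPM over the 9 libraries lay nearest to each of 5 members were found by the root mean square difference, among 12778 protein-coding genes. For *ACTR3* they were *DEK* (0.0477), *VAMP7* (0.0519) and *MBP* (0.0722), and for *ACTR2* *SEPTIN10* (0.0848), *RPS6KA3* (0.0897) and *FYTTD1* (0.105). For *ACTB* they were *GTF2F2* (0.103), *DOK4* (0.171) and *RELB* (0.173). *ACTG1* lay nearest to *DNAJB2* (0.178), *LDHA* (0.199) and *RBFOX3* (0.223). For *ACTBL2* the nearest, *ITGB3* (0.433), *MAP2* (0.477) and *CCNA1* (0.495), lay farther off. These distances follow from group differences and from single libraries such as CTCFL-KD replicate 1 alike.

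Markers of ovarian carcinoma cells moved with the knockdown group. Summed over 12 markers, with *PAX8*, *EPCAM*, *KRT8* and *MUC16* among them, they gave 5528 to 5626 CPM in Control, 4972 to 5232 in CTCFL-OE and 9470 to 16050 in CTCFL-KD, with 0 of 12 at 0 in any group. Of the 11 tested, 8 were higher and 2 lower in CTCFL-KD (21.4% and 16.8% of all genes). The 2 lower ones were *KRT7* (-1.12, adjusted p = 0.0164, edgeR) and *WT1* (-0.63, adjusted p = 0.0272, edgeR). *PAX8* did not pass (0.50, adjusted p = 0.0592, edgeR). In CTCFL-OE 0 passed (2 at an unadjusted p under 0.05 in edgeR, 2 by DESeq2). Without CTCFL-KD replicate 1, 2 were lower and 2 higher in CTCFL-OE, beside 13.4% and 14.0% of all genes. Summed fibroblast markers were at 28.0 to 33.8 CPM in Control (*COL1A2*, *COL3A1* and *DCN*, 3 of 10, at 0), 25.0 to 44.2 in CTCFL-OE (*COL3A1*, 1 of 10, at 0) and 37.8 to 43.0 in CTCFL-KD (0 of 10 at 0), and 2 of the 4 tested, *COL1A2* and *POSTN*, were higher in CTCFL-KD (21.4% of all genes). Both cleared the low-count filter only through CTCFL-KD, where they are high, so this count cannot be set against the share of all genes. The fibroblast collagen *COL1A2* had 0 counts in every Control library, 0 to 2 counts in CTCFL-OE, and 156, 239 and 247 counts in the CTCFL-KD libraries. *COL1A1*, the most abundant marker of this list, went the other way, from 29.8 CPM in Control to 23.3 CPM in CTCFL-KD, and did not pass (-0.36, adjusted p = 0.221, edgeR). *FAP*, a fibroblast surface protease, was at -0.05 in CTCFL-KD and did not pass. Summed markers of blood cells, which are leukocyte genes and the haemoglobin genes *HBB* and *HBA1*, were at 0.551 to 0.971 CPM in Control (*CD3E*, *CD68*, *HBB* and *HBA1*, 4 of 8, at 0), 0.867 to 2.03 in CTCFL-OE (0 of 8 at 0) and 2.96 to 4.87 in CTCFL-KD (*CD68* and *HBB*, 2 of 8, at 0), and 2 of the 2 tested were higher in CTCFL-KD (21.4% of all genes), 1 of them without CTCFL-KD replicate 1. The part of these differences in the actin and Arp2/3 results was not tested.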

How the data were processed

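The deposited values were raw gene counts for 9 libraries, once in a matrix and once in a file per library, with identical values in both. According to the methods, the authors used FastQC and Trimmomatic, aligned the paired-end 75-base reads to GRCh38 with STAR and counted them with featureCounts; the submitters' processing notes also list kallisto. The release of the annotation, strandedness of counting and the handling of multi-mapping and overlapping reads are not given in the sources used here. Libraries came from a TruSeq Stranded mRNA kit.

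The 10 members, the regulator and marker lists and the tests were chosen with earlier results of these data known. Symbols, positions and transcript lengths came from GENCODE 44, which named 60419 of 60660 identifiers, and promoters from RefSeq (GRCh38.p14). Counts were analysed with edgeR 4.0.16 (filterByExpr, TMM, robust glmQLFit, quasi-likelihood test, Benjamini-Hochberg adjustment over 17794 genes) in R 4.3.3, on all 9 libraries with condition as the only factor; standard errors are on the log2 scale. The script was tested on simulated counts. Python 3.11.15 with pandas 2.3.3, numpy 2.4.6, scipy 1.17.1 and matplotlib 3.10.9 served for tables, exact tests and figures. Alternatives were DESeq2 1.42.0, other scalings and filters, fits of 2 groups, a replicate block, removal of the length and GC trend (spline with 4 degrees of freedom per library), merged actin rows, and leaving out each library. Genes named were all members, the other Arp2/3 subunits and muscle actins, of each other list at most the 2 highest and 2 lowest called per comparison, the 3 nearest genes (pseudocount 0.5 CPM) of 5 members, and actin-like rows with counts.

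Same-numbered Control and CTCFL-KD libraries deviated together (Pearson's r = 0.374, 0.216 and 0.261 across 12000 genes), so the replicate numbers were taken to pair these groups. Control and CTCFL-OE (r = -0.0512, 0.221 and -0.0532) were not paired. Intervals and the limit of 3 counts cover counting error only.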

Additional observations from a re-analysis of the deposited data

How the results depend on the processing

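The number of members past the test in CTCFL-OE was 2, and it was 4 with DESeq2, 5 in the edgeR fit of the 2 groups alone, 4 with no low-count filter, 1 with at least 10 counts in every library (where ACTBL2 has no value), 1 with merged actin rows, and 0 to 8 leaving out 1 library. Actin regulators, with the other subunits and muscle actins, past the test in CTCFL-OE numbered 8, and 16 with DESeq2, 34 in the fit of the 2 groups, 4 with the replicate block, 23 with the length and GC trend removed, 21 with both, and 0 to 50 leaving out 1 library. In CTCFL-KD, leaving out 1 library gave 4 to 9 members beside 5, and 25 to 65 regulators beside 41. In CTCFL-KD against CTCFL-OE the 2 members became 1 in the fit of the 2 groups, 4 with no filter, 1 with at least 10 counts in every library, 1 with the replicate block, 4 with the block and the trend removed, and 1 to 5 leaving out 1 library. DESeq2 passed 2 members there as lower and 1, ACTG1, as higher. The highest counts in these ranges came without CTCFL-KD replicate 1, where the shares over all genes were higher too. Of all genes, 1.16% passed as lower in CTCFL-OE, 4.57% with the trend removed and 13.4% without CTCFL-KD replicate 1. In CTCFL-KD these shares were 16.8%, 20.0% and 23.7%. In CTCFL-KD against CTCFL-OE they were 11.5%, and 18.7% without CTCFL-KD replicate 1. For the other settings no share over all genes is given, so those counts cannot be read against one. In CTCFL-OE, members numbered 0 without Control replicate 3, 4 without CTCFL-OE replicate 1 and 1 without Control replicate 1 or 2 or CTCFL-OE replicate 2 or 3. Regulators there numbered 0 without any 1 Control library or CTCFL-OE replicate 2, 1 without CTCFL-OE replicate 3, 5 without CTCFL-KD replicate 2 or 3, and 23 without CTCFL-OE replicate 1. In CTCFL-KD the 25 regulators came without Control replicate 1, and in CTCFL-KD against CTCFL-OE 1 member was left without any 1 Control library or CTCFL-OE replicate 1 or 2. Leaving out 1 library, the log2 fold change of ARPC1A in CTCFL-KD ran from -0.40 to 0.73, that of ARPC3 from -0.49 to 0.12 (0.00431 without Control replicate 2, 0.0954 without CTCFL-KD replicate 2 and 0.1246 without CTCFL-KD replicate 3), and that of ARPC3 in CTCFL-KD against CTCFL-OE from -0.12 to 0.50. The log2 ratio of ACTB to ACTG1 ran from 0.33 to 0.42 above Control in CTCFL-OE and from -0.50 to -0.33 in CTCFL-KD. With the replicate block these differences were 0.36 and -0.42, and the block changed only the member calls already given for ACTG1 in CTCFL-KD and ACTR3 in CTCFL-KD against CTCFL-OE. Over the members' own fold changes, 488 values under an alternative kept direction and call, 45 gained a call, 23 lost it and 5 changed sign. The causes were not tested. With 3 libraries a group, a difference that missed the threshold is not shown to be absent, and ACTBL2 in CTCFL-KD rests on 12 counts.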
